A study of Mus musculus with 6 samples.

Results

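The RAG recombinase, the template-independent polymerase TdT and the core proteins of nonhomologous end joining are described here by the 10 genes Rag1, Rag2, Dntt, Dclre1c, Prkdc, Xrcc4, Xrcc5, Xrcc6, Lig4 and Nhej1. Their members were taken as every probe that the array design names after one of these genes, control spots left out. All 10 genes had a probe, out of 24105 gene names on the array, and together they were covered by 15 probes of 60 bases on 35 spots. The set was drawn up from the known roles of the genes, and its rule used no measured value. Earlier results of these data were, however, known when the set was chosen.

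RNA came from 1676 cells, a mouse pre-B cell line grown from whole bone marrow of SLP-65-/- LAT-/- animals in IL-7, so by the label every group lacks both adaptor proteins. Probes of Lat and of Blnk, the gene of SLP-65, gave signal above background on every array, but their places relative to the deleted parts are not given in the sources used here, so they check nothing about the genotype. The cells carried a retroviral vector without insert (control), a vector for the human precursor hsa-miR-26a-2 (miR-26a) or a miR-26 sponge that offers binding sites to the miR-26 family (sponge). All were selected with puromycin and kept with IL-7, and each group had 2 arrays, by the labels 1 from each of 2 experiments with separately made cell clones. No array of a scrambled sponge was analysed here, and the control samples may have been made for an earlier series.

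V(D)J recombination assembles the antigen receptor genes of developing lymphocytes. RAG1 carries the active site and RAG2 is its essential partner, and together they cut at recombination signal sequences that flank the V, D and J segments. The cut leaves hairpin-sealed coding ends, which Artemis (Dclre1c) opens when it is activated by the DNA-dependent protein kinase (Prkdc). TdT (Dntt) adds bases without a template to the opened ends, mainly at heavy chain joins. Ku80 (Xrcc5) and Ku70 (Xrcc6) hold the ends, and XRCC4, XLF (Nhej1) and DNA ligase IV (Lig4) seal them. In B cell precursors, Rag transcription falls in dividing cells under strong IL-7 signalling and rises again at the small pre-B stage, when light chain genes rearrange, whereas the end-joining proteins are made in most cells.

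The microRNA that was raised or trapped is shown with the bases that choose its targets. The mature sequences are those of RefSeq (GRCm38.p6), and capitals mark the seed, bases 2 to 8, which both family members share.
mmu-miR-26a-5p: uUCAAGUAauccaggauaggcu
mmu-miR-26b-5p: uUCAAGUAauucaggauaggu
The array has no probe for miR-26a itself, so the level of the microRNA was not read on these arrays. The Rag2 probe on which the largest change was seen is given next, because it can be located within the gene. It lies at chr2:101470723-101470782 on the plus strand of mm9, and of its 3 reading frames only frame 3 has no stop codon.
Rag2 probe A_66_P105784: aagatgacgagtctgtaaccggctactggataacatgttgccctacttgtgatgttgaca
Of the 15 probes only 1 holds the complement of the seed, TACTTGA, which occurs in 0.431% of all 55681 probes of the array. It is the Dclre1c probe A_55_P2067131 at chr2:3378320-3378379 on the plus strand of mm9, and the 30 bases around the match are printed with the match and the A that follows it in capitals.
Dclre1c probe A_55_P2067131, part: ttattgcctggTACTTGAAtgatgaaacta
The other 14 probes do not hold these letters in full, which says nothing about the rest of their transcripts. Shorter matches were not counted, and the Rag2 probe printed above holds all but the last letter of the seed complement.

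Values are log2 quantile-normalized signals, and a change is a difference between group means on that scale. No spot was saturated, and 48.6% to 50.2% of the spots of an array were well above background. A probe entered the test if its signal passed 50 on 4 or more arrays and stood well clear of the background on 1 or more, which held for 20168 of 55681 probes. limma was fitted to the 6 arrays together, with the experiments as blocks and with Benjamini-Hochberg adjustment over all tested probes, and a probe was called at an adjusted p under 0.05. Precision is limited by having 2 arrays a group, and the p-values measure the spread between these arrays alone. The 6 arrays were read on 1 slide, where experiment 1 and experiment 2 lay in separate rows, so experiment and slide row cannot be told apart. Of the 15 member probes 13 were tested, at least 1 for each gene, and the other 2 were the dimmer probes of Rag1 and Rag2.

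In cells with miR-26a both RAG genes and Dntt fell, Xrcc5 rose slightly, and no probe of the other 6 genes was called. Against the control, 3 of the 13 tested probes were lower and 1 was higher, beside 5.14% lower and 4.5% higher among all 20168 tested probes. With the sponge none of the 13 was called, where 0% of all tested probes were lower and 0.00992% higher. The median change of the 13 probes was -0.21 with miR-26a and 0.05 with the sponge, beside 0.01 and 0 over all tested probes. In 3 of the 17 alternative analyses, with all probes tested, with an unpaired t-test and with the log ratios of the 2 experiments tested alone, no probe of the array was called (adjusted p of Rag2 from 0.22 to 0.375).

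**Figure D1:**
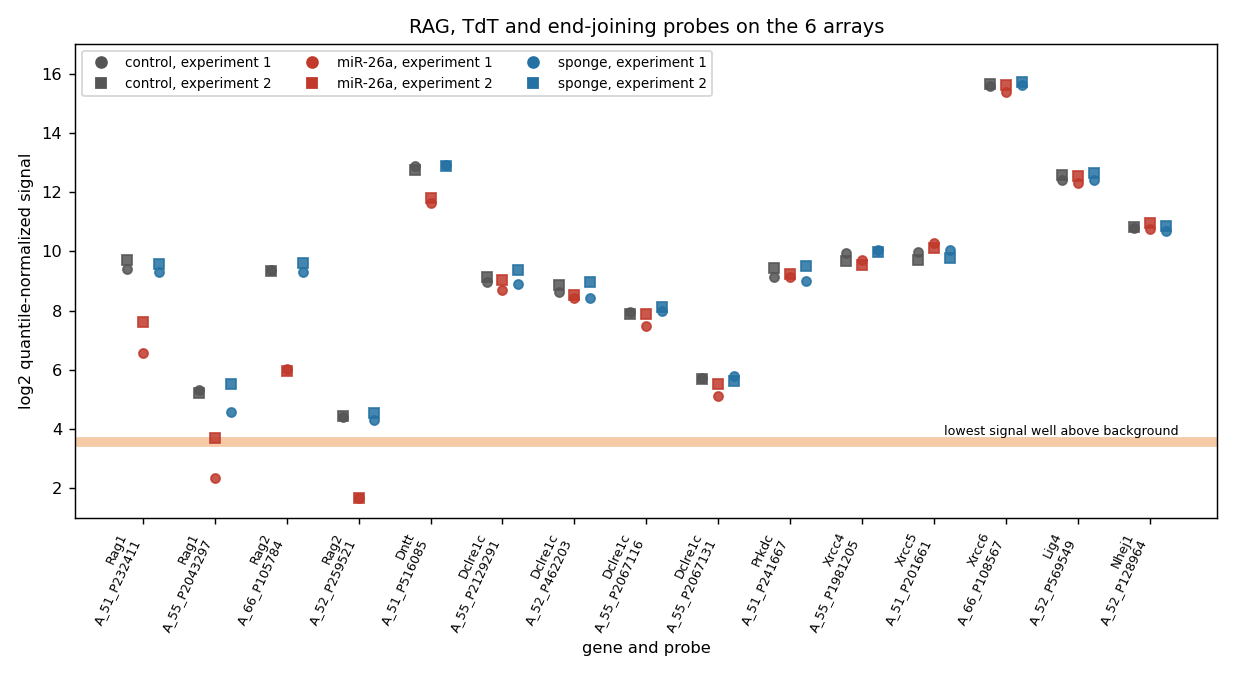
Log2 quantile-normalized signal (y axis) of each of the 15 probes (x axis) on each array, with circles for experiment 1 and squares for experiment 2, grey for control, red for miR-26a and blue for sponge; the band spans the lowest signal well above background on the 6 arrays (3.43 to 3.69). The miR-26a points lie apart from and below the other groups for both Rag1 probes, both Rag2 probes and Dntt, and close to them for the end-joining genes.

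Rag2, the non-catalytic partner in the recombinase, had the lowest change of all 20168 tested probes. On the brighter probe, whose sequence is given above, the signals were 9.37 and 9.35 in control, 6.04 and 5.96 in miR-26a and 9.32 and 9.60 in sponge. Both miR-26a arrays lay far below the other 4, which spanned a narrow range. The change with miR-26a was -3.36 (SE 0.10, 95% interval -3.62 to -3.10, limma adjusted p = 0.00105), a 10.3-fold lower signal. It was -3.33 in experiment 1 and -3.39 in experiment 2. Over the 17 alternative analyses it ran from -3.47 to -2.56, which reaches outside this interval, so the fold size depended on the processing. With the sponge it was 0.10 (95% interval -0.16 to 0.36, adjusted p = 0.661), and the sponge and control arrays overlapped.

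The other Rag2 probe, A_52_P259521 at chr2:101472445-101472504, was spotted 10 times and was too dim to be tested. It gave 4.41 and 4.46 in control, 1.68 and 1.69 in miR-26a and 4.32 and 4.56 in sponge. It was well above background on both control and both sponge arrays and, with 0 and 1 of its 10 spots passing, on neither miR-26a array, so the miR-26a values are only a bound. Set against the lowest signal well above background on each miR-26a array, or the probe's own value where that is higher, the control signal was at least 1.83-fold higher (mean 4.44 against a bound of 3.56, with 1.69 measured). The spots of this probe spread with an SD of 0.26 and 0.46 in control and 0.62 and 0.91 in miR-26a.

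Rag1, which holds the active site for cutting, lies next to Rag2 on chromosome 2 on the opposite strand. Its brighter probe, A_51_P232411 at chr2:101478813-101478872 on the minus strand, gave 9.39 and 9.71 in control, 6.56 and 7.61 in miR-26a and 9.32 and 9.57 in sponge. The miR-26a arrays were again below all others, but unlike those of Rag2 (SD 0.06) they differed from each other (SD 0.75). The change with miR-26a was -2.47 (SE 0.20, 95% interval -2.97 to -1.96, limma adjusted p = 0.00555), a 5.53-fold lower signal and the 7th lowest of all tested probes. It was -2.84 in experiment 1 and -2.09 in experiment 2. Without the control array of experiment 1 it was -2.29 and narrowly missed the threshold (adjusted p = 0.0528). The sponge gave -0.10 (95% interval -0.61 to 0.40, adjusted p = 0.818), with overlapping arrays.

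The dimmer Rag1 probe, A_55_P2043297 at chr2:101481051-101481110, was not tested. It gave 5.31 and 5.22 in control, 2.35 and 3.69 in miR-26a and 4.58 and 5.51 in sponge. It was well above background on both control and both sponge arrays but only on the second of the miR-26a arrays, there on 1 of its 2 spots. As on the brighter probe, the miR-26a array of experiment 1 was the lower of the pair.

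Dntt encodes TdT, which adds bases at the joins. Its probe, A_51_P516085 at chr19:41133936-41133995 on the plus strand, gave 12.88 and 12.76 in control, 11.62 and 11.79 in miR-26a and 12.91 and 12.87 in sponge. The miR-26a arrays were below all others by more than the spread within any group. The change with miR-26a was -1.12 (SE 0.09, 95% interval -1.34 to -0.89, limma adjusted p = 0.00548), a 2.17-fold lower signal and the 91st lowest of all tested probes. The experiments gave -1.26 and -0.98, and without the control array of experiment 1 the change was -1.03 and was not called (adjusted p = 0.0603). The sponge gave 0.07 (95% interval -0.15 to 0.30, adjusted p = 0.716).

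Of the end-joining genes only Xrcc5, the Ku80 subunit that holds broken ends, passed the test against the control. Its probe, A_51_P201661, maps to chr1:72430014-72430320, a span longer than its 60 bases, and gave 9.97 and 9.71 in control, 10.29 and 10.10 in miR-26a and 10.03 and 9.76 in sponge. Both miR-26a arrays lay above the other 4, by a margin smaller than the gap between the experiments. The change was 0.35 (95% interval 0.19 to 0.52, limma adjusted p = 0.0346), a 1.28-fold higher signal, with 0.32 and 0.39 in the experiments. Without the replicate block it was not called (adjusted p = 0.294), nor in any of the fits that left out an array. Xrcc6, the Ku70 subunit that pairs with Ku80, gave 15.58 and 15.65 in control and 15.37 and 15.62 in miR-26a, a change of -0.12 (95% interval -0.30 to 0.07, adjusted p = 0.383).

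Dclre1c, the nuclease that opens hairpin ends, had 4 probes, which the array design assigns to 2 transcripts, and none was called. Their changes with miR-26a were -0.21, -0.28, -0.24 and -0.38, with adjusted p from 0.175 to 0.282. The lowest of them belonged to the probe with the seed match, at 5.74 and 5.69 in control, 5.13 and 5.54 in miR-26a and 5.81 and 5.62 in sponge. Its linear signals reached the limit of 50 on the control and sponge arrays and on neither miR-26a array (34.2 and 45.5), so the probe entered the test through the groups in which it was higher. It was called only when the miR-26a array of experiment 2 was left out (-0.65, adjusted p = 0.0193). With the sponge the same probe was at 0.00 (95% interval -0.37 to 0.37) and the other 3 were between -0.07 and 0.12.

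Prkdc, the kinase that activates Artemis, was spotted 10 times and gave 9.13 and 9.45 in control, 9.12 and 9.22 in miR-26a and 9.01 and 9.49 in sponge. The change of -0.12 (95% interval -0.38 to 0.14) was smaller than the gap between its control arrays. On each array its 10 spots had an SD of 0.03 to 0.07, below the gap between experiments.

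The ligase and its bridging factor were not called. Lig4, the ligase, gave 12.42 and 12.58 in control and 12.30 and 12.55 in miR-26a, a change of -0.07 (95% interval -0.24 to 0.10, adjusted p = 0.557). Nhej1, which bridges the ends, gave 10.80 and 10.81 in control and 10.75 and 10.95 in miR-26a, a change of 0.04 (95% interval -0.16 to 0.24, adjusted p = 0.798). For both, the miR-26a and control arrays overlapped.

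Xrcc4, the scaffold of the ligase, differed between miR-26a and sponge. Its probe gave 9.95 and 9.67 in control, 9.71 and 9.54 in miR-26a and 10.05 and 9.98 in sponge. Against the control the change was -0.18 with miR-26a (adjusted p = 0.209) and 0.21 with the sponge (adjusted p = 0.300, unadjusted p = 0.0437 in limma), neither of them called. Between miR-26a and sponge it was -0.39 (95% interval -0.59 to -0.19, adjusted p = 0.0297), a call that was lost without the block and in each fit that left out an array.

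**Figure D2:**
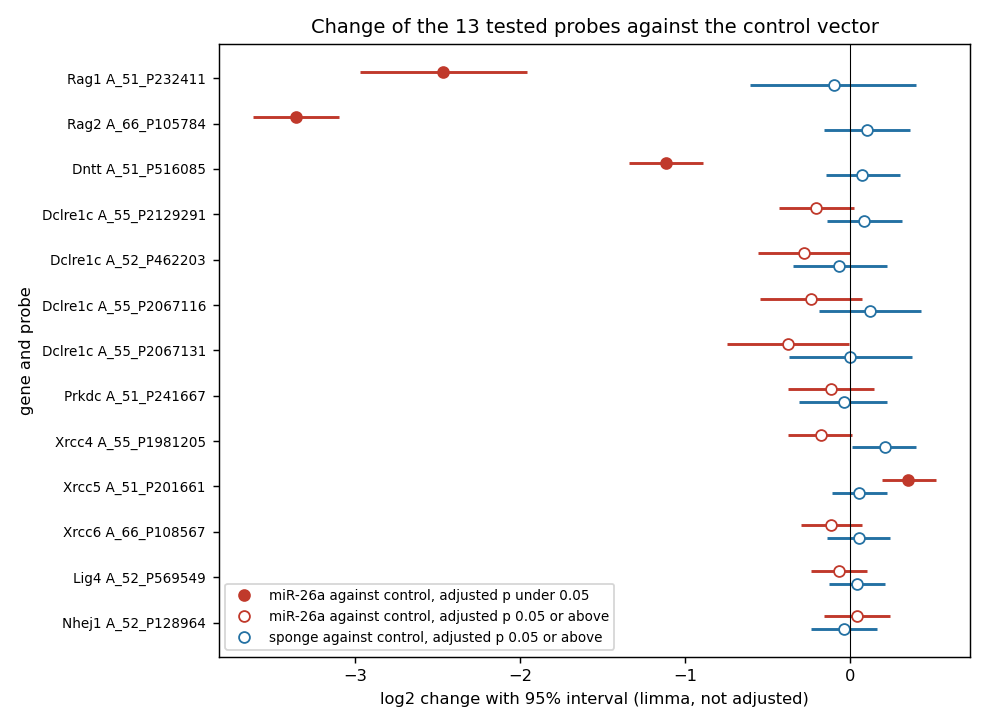
Log2 change (x axis) with its 95% limma interval, not adjusted for the number of probes, for the 13 tested probes (y axis), in red for miR-26a and in blue for sponge against control, filled where the adjusted p was under 0.05. The Rag2, Rag1 and Dntt intervals for miR-26a lie at or below -0.89, and the largest sponge change in size is 0.21.

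The miR-26a and sponge comparisons share the control arrays, so the constructs were also set against each other. This comparison uses the same miR-26a arrays and the same fit, so it is not independent of the one against the control. In that comparison 4 of the 13 tested probes were lower with miR-26a and 1 was higher, beside 8.49% lower and 8.28% higher among all tested probes. Rag2 differed by -3.46 (adjusted p = 0.000622), Rag1 by -2.36 (adjusted p = 0.00365) and Dntt by -1.19 (adjusted p = 0.00318), and Xrcc5 by 0.30 (adjusted p = 0.0382). The sponge intervals against the control bound any change at -0.16 to 0.36 for Rag2, -0.61 to 0.40 for Rag1 and -0.15 to 0.30 for Dntt. A rise of Rag1 by up to 0.40 lies within its interval.

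Rag1 and Rag2 sit in a compact locus on chromosome 2, and the probes around them show which neighbours moved with them. Within 500 kb of the RAG probes the array held 14 other probes, of which 7, for 4 genes, were tested. Both probes of B230118H07Rik fell with miR-26a, and the 5 probes of Traf6, Commd9 and Ldlrad3 were not called, with changes from -0.17 to -0.05. B230118H07Rik, named Iftap in RefSeq with the synonym NWC, is read from the strand opposite to Rag2, and its RefSeq span overlaps that of Rag2.

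The probe of B230118H07Rik 68.4 kb from the Rag2 probe gave 8.64 and 8.93 in control, 6.25 and 7.01 in miR-26a and 8.99 and 9.08 in sponge. The one 54.6 kb away gave 7.03 and 7.39 in control, 4.74 and 5.19 in miR-26a and 7.44 and 7.69 in sponge. Its linear signals passed the limit for testing on the control and sponge arrays and on neither miR-26a array (26.05 and 35.12). This nearer probe therefore entered the test through the groups in which it was higher. As for Rag1, the miR-26a array of experiment 1 was the lower of the pair on each probe. The changes with miR-26a were -2.15 (95% interval -2.55 to -1.75, limma adjusted p = 0.0047) and -2.24 (95% interval -2.44 to -2.05, adjusted p = 0.00131). Over the alternative analyses they ran from -2.44 to -1.6 and from -2.32 to -1.18. With the sponge the changes were 0.25 and 0.36, neither called (adjusted p = 0.485 and 0.221). Both sponge arrays lay above both control arrays on each probe, as on 17.3% of all tested probes.

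On the other side of the RAG genes, the nearest probe of Traf6, an adaptor of cytokine receptor signalling, lay 48.5 kb from the Rag2 probe. The 3 probes of Traf6 changed by -0.10, -0.05 and -0.17 with miR-26a. Commd9 at 270.7 kb changed by -0.08 and Ldlrad3 at 320.4 kb by -0.05. The other 7 neighbouring probes, 3 of Prr5l, 1 of A130042O14Rik, a further one of Ldlrad3 and 2 without a gene name, were too dim to be tested.

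**Figure D3:**
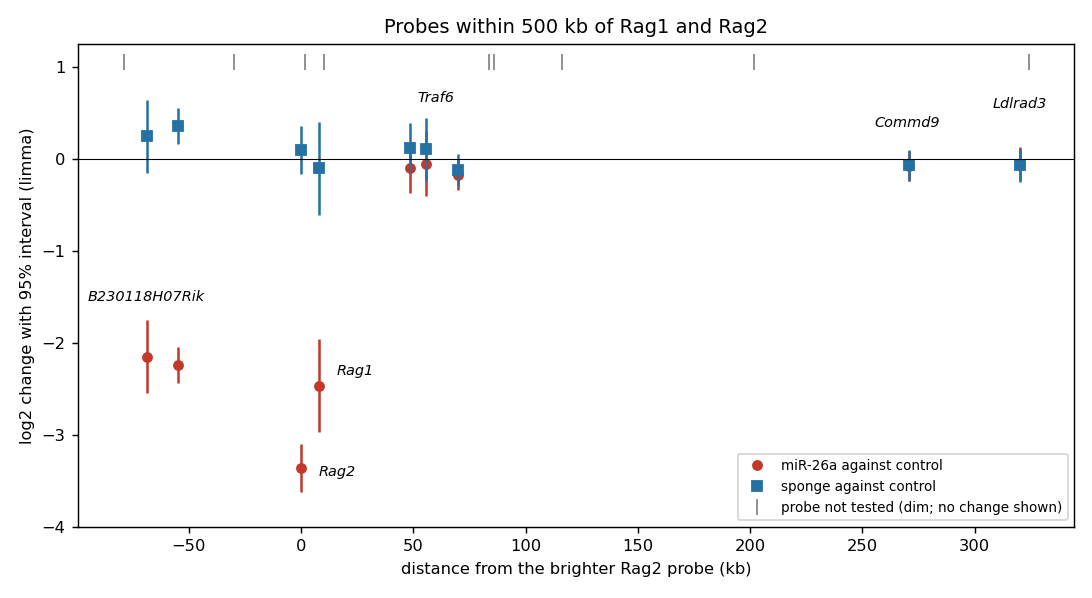
Log2 change with its 95% limma interval (y axis) against distance from the brighter Rag2 probe in kb (x axis), for each tested probe within 500 kb of the RAG probes, red circles for miR-26a and blue squares for sponge against control; ticks at the top mark the dim probes that were not tested. With miR-26a the probes of B230118H07Rik, Rag2 and Rag1 fell by 2.15 or more on the log2 scale, and those of Traf6, Commd9 and Ldlrad3 lie between -0.17 and -0.05.

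As Rag1, Rag2 and Dntt fell together, the stretches before their starts are shown. They are the 250 bases upstream of each start in RefSeq (GRCm38.p6), at chr2:101649533-101649782 on the minus strand for Rag1, at chr2:101624462-101624711 on the plus strand for Rag2 and at chr19:41029025-41029274 on the plus strand for Dntt. Capitals mark matches on either strand to 5 motifs of factors known for B cell promoters: CCAAT, the Myb motif CNGTTA, the Ikaros motif TGGGAA, the E-box CAGGTG of E2A proteins and the forkhead motif TGTTTAC. No match overlaps another.
Rag1 upstream: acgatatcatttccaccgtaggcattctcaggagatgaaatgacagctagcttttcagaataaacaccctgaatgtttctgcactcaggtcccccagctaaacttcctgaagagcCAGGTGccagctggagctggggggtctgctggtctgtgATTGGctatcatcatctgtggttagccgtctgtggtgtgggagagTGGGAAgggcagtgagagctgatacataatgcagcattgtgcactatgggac
Rag2 upstream: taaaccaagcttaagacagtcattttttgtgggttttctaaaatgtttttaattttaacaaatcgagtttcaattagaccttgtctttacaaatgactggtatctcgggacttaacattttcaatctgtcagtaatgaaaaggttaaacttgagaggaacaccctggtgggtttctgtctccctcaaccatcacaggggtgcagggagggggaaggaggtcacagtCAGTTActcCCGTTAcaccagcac
Dntt upstream: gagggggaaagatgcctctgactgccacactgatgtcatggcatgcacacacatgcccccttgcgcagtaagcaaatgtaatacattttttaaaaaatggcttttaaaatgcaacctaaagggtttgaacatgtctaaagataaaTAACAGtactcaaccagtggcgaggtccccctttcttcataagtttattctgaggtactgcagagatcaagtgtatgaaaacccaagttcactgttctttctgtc
Rag1 held an E-box, a CCAAT box on the reverse strand and an Ikaros motif, which are found in 17.2%, 33.8% and 21.6% of the 32851 RefSeq promoters in a window of this length. Rag2 held 2 Myb motifs near its start and Dntt held 1, where 19.8% of promoters hold at least 1. The forkhead motif, in 3.17% of promoters, was in none of the 3 windows, which says only that its letters are not there. No motif was common to the 3 windows, and these matches are a description of the letters, not of bound sites.

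The genes around this machinery were read from 4 lists, by the brightest probe of each gene. Of all tested probes, 5.14% were lower and 4.5% higher with miR-26a against control, at a median change of 0.01. Among the end-joining accessory factors, 1 of the 11 tested genes reported here was lower with miR-26a and none higher, with a median change of -0.08. This was Polm, a polymerase that fills in joins. The brightest probe of Polm gave 10.87 and 10.97 in control, 10.25 and 10.56 in miR-26a and 10.87 and 10.97 in sponge, a change of -0.51 with miR-26a (limma adjusted p = 0.0219). Its second probe gave -0.29 and was not called. Aptx, which clears failed ligation ends, was called only between miR-26a and sponge (-0.44, adjusted p = 0.0202) and was at -0.30 against control (adjusted p = 0.0695).

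Of the 14 break sensing and signalling genes, Chek2, a checkpoint kinase, was higher with miR-26a and none was lower, at a median change of 0.08. Chek2 gave 8.80 and 8.90 in control, 9.25 and 9.18 in miR-26a and 8.77 and 8.67 in sponge, a change of 0.37 (limma adjusted p = 0.0481). Atm, the kinase that signals RAG breaks, was not called (0.23, adjusted p = 0.0889). Neither the call of Polm nor that of Chek2 held without the replicate block (adjusted p = 0.113 and 0.11). Chek2 was called in 3 of 17 alternative analyses and in 0 of the 6 that left out 1 array, and Polm in 5 of 17 and 1 of 6.

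In the list of RAG cofactors and RAG protein turnover, 2 of 12 genes were lower with miR-26a and none higher, at a median of -0.03. Skp2, the F-box subunit of the ubiquitin ligase that removes RAG2 protein as cells enter S phase, gave 11.38 and 11.32 in control, 9.80 and 9.93 in miR-26a and 11.71 and 11.58 in sponge. Its change with miR-26a was -1.49 (95% interval -1.70 to -1.27, limma adjusted p = 0.00317), a 2.80-fold lower signal, and both miR-26a arrays lay below all others. Cdk2, a kinase of the same cell cycle step that marks RAG2 for removal, changed by -0.37 (adjusted p = 0.0368, and 0.12 without the replicate block). It was called in 5 of 17 alternative analyses and in 0 of the 6 that left out 1 array. Cdk2 was lower with the sponge too, by -0.25 (limma adjusted p = 0.241, not called). Between miR-26a and sponge it differed by -0.13 (adjusted p = 0.272). Hmgb1 and Hmgb2, which bend DNA for RAG, were at -0.10 and -0.04, and Ccna2, the cyclin partner of Cdk2, at 0.06. Cul4a was called only between miR-26a and sponge (0.29, limma adjusted p = 0.0412). A dimmer probe of Cul4a gave -0.10 there and was not called (adjusted p = 0.453).

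Of the transcription factors tied to the Rag locus, 1 of 16 tested genes was lower with miR-26a and none higher, at a median of -0.08. Irf4, which acts in light chain recombination, gave 11.45 and 11.69 in control, 10.24 and 10.51 in miR-26a and 11.19 and 11.69 in sponge. Its change with miR-26a was -1.19 (95% interval -1.41 to -0.97, limma adjusted p = 0.00481), and it missed the threshold without the replicate block (adjusted p = 0.057) and without the control array of experiment 1 (adjusted p = 0.0565). Foxo1, the factor that drives Rag transcription, changed by -0.16 on its brightest probe (adjusted p = 0.214). Ikzf1 (Ikaros) was at 0.03 and Ikzf3 (Aiolos) at -0.35 (adjusted p = 0.0636). With the sponge no gene of the 4 lists was called, and changes ran from -0.25 to 0.29.

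**Figure D4:**
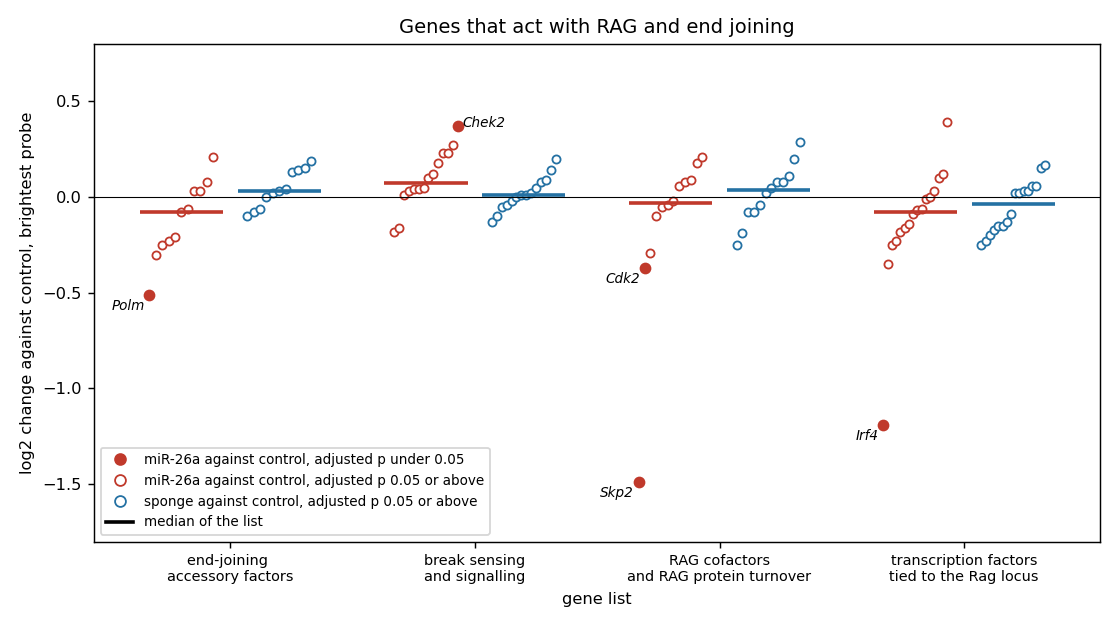
Log2 change against control (y axis) of the brightest probe of each tested gene in the 4 lists (x axis), red for miR-26a and blue for sponge, filled where the limma adjusted p was under 0.05, with a bar at each list's median. Skp2 (-1.49) and Irf4 (-1.19) lie apart from the other genes of their lists with miR-26a, and no sponge point is filled.

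The genes most like the members were sought among 15196 named tested probes by the Euclidean distance over the 6 arrays, with each probe taken relative to the mean of its control arrays. Among the nearest to Rag2 were Igfbp4 (distance 0.35), Ccr7 (1.28), Col5a3 (1.37) and Rag1 (1.55). For Rag1 they were H2-Eb1 (0.65), B230118H07Rik (0.71), Il10ra (0.92), Cd74 (0.93) and Ccr7 (0.94). For Dntt they were Crip2 and Fbxl19 (each 0.20), 2010002N04Rik, Tuba1a and Atp6v0e (each 0.24). The measure follows size as well as shape, so it ranks probes that fell by a like amount.

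The B lineage label was checked on 10 marker genes by the brightest probe of each. All 10 passed the background limit on every array, with summed linear signals of 713400 to 760600 in control, 676200 to 729700 in miR-26a and 710400 to 760400 in sponge. The brightest probes, such as those of Vpreb1 and Vpreb3, weigh most in these sums. Blnk, the gene of the SLP-65 that the line lacks by its label, is 1 of the 10. It was the only one of them called with miR-26a against control (-0.49, limma adjusted p = 0.0275). Of 9 T lineage markers 4 passed it on every array (Cd3e, Cd4, Lck and Lat) and Cd3g, Cd8a and Ptcra on none. The sums of the T lineage markers were 3740 to 3758 in control, 3274 to 3436 in miR-26a and 3454 to 3595 in sponge. Of 7 myeloid markers 3 passed the background limit on every array (Itgam, Csf1r and Elane) and Ly6g on none. The sums of the myeloid markers were 3579 to 4616 in control, 3816 to 4539 in miR-26a and 3027 to 4413 in sponge. A dimmer probe of the myeloid gene Itgam fell by 0.82 with miR-26a (limma adjusted p = 0.0072), while its brightest probe was at 0.06. The dimmer probe gave 7.78 and 7.83 in control and 7.17 and 7.40 in sponge. Both sponge arrays were thus below the control arrays too, as on 20.4% of all tested probes. Of 4 plasma cell markers 3 passed the background limit on every array (Sdc1, Prdm1 and Xbp1) and Igj on none. The sums of the plasma cell markers were 4542 to 5042 in control, 5304 to 6203 in miR-26a and 4601 to 5818 in sponge. Xbp1 made up most of these sums, with a mean log2 signal of 12.06 in control and 12.36 in miR-26a. Sdc1 (7.84 and 7.73) and Prdm1 (8.07 and 8.02) were not higher with miR-26a. None of the 3 tested plasma cell genes was called, at a median change of -0.05 with miR-26a. The part of other cells in the member values was not tested, and fewer cells that express a gene cannot be told apart from less RNA per cell.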

How the data were processed

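The 6 single-colour Agilent mouse arrays were grouped by their labels. The authors deposited scanner output with an intensity per spot (mean signal, and processed signal after background subtraction by Agilent Feature Extraction 10.7.1.1, per the labels), and a table of processed values that are quantile-normalized intensities on a linear scale. Here the processed signals of non-control spots were quantile-normalized, log2-transformed and averaged per probe. The deposited intensities are thus given as log2 values, and gene names and mm9 coordinates come from the array design. Outlier-flagged spots were dropped, unless a probe had no other. limma 3.58.1 in R 4.3.3 was fitted to the 20168 tested probes as described above, and the code was tested on simulated data. The replicate number was used as a block since the methods normalize to the control of each experiment. Arrays of the same number deviated together, with correlations over the tested probes of 0.59 between control and sponge, 0.45 between sponge and miR-26a and 0.38 between miR-26a and control. The members, lists and tests were chosen with earlier results of these data known. All members were named with every probe. Of each list, up to 4 called genes a comparison and the genes the study measured by PCR were named, with a few others chosen after their values were seen for their known role (Atm, Foxo1, Hmgb1, Hmgb2, Ccna2). 17 alternatives were run. Some genes that the lists and rules cover are not reported here. Protein sequences were not used here.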

Additional observations from a re-analysis of the deposited data

How the results depend on the processing

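All 68 values of the 4 member probes called for miR-26a against control kept their sign over 17 alternatives, and 23 were no longer called. Their sizes varied with the alternative, from -3.47 to -2.56 for Rag2 and from -2.85 to -2.06 for Rag1. For Dntt they ran from -1.24 to -1 and for Xrcc5 from 0.32 to 0.39. For miR-26a against sponge all 85 values of the 5 called probes kept their sign and 35 were not called. Of 150 values of uncalled probes with miR-26a, 3 changed sign, and of 218 with the sponge, 16 did; the sponge gave 0 member calls in every alternative. With no filter, with an unpaired t-test and with the 2 log ratios tested alone, 0 probes were called for any contrast and 0 member probes; the cause was not tested.

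Without the replicate block, 238 probes were lower and 73 higher for miR-26a against control, 632 and 365 for miR-26a against sponge, and 3 member probes were called in each, Rag1, Rag2 and Dntt. The sponge counts were 0 lower and 2 higher, as with the block. With probes well above background on all 6 arrays, miR-26a gave 382 lower and 191 higher against control, 900 and 628 against sponge, with 3 member calls in the latter, and the sponge 0 higher. With only the 4 arrays compared, the counts were 635 and 488, 1104 and 779 with 3 member calls, and for the sponge 22 lower and 13 higher. The sponge gave 1 lower with 75th percentile scaling, 26 lower and 10 higher with normexp, 2 lower and 8 higher with a signal above 50 on at least 2 arrays, and 0 higher with probes of a gene averaged.

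Leaving out each array gave 75 to 916 lower and 29 to 683 higher with miR-26a, 0 to 22 lower and 0 to 13 higher with the sponge, and 285 to 1349 lower and 125 to 1087 higher for miR-26a against sponge. Member calls ranged from 1 to 4 against control and from 2 to 5 against sponge. The lowest, 1, came without the control array of experiment 1, when only Rag2 was called. A lone array was assumed to vary like those of the other groups.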

Other observations

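The surroundings of Dntt on chromosome 19 were read in the same way as those of the RAG genes, a choice made after the values were seen. Of 22 other probes within 500 kb, 10 were tested. Blnk, the gene of the SLP-65 adaptor, lies 130.5 kb from the Dntt probe. It was the only neighbour lower with miR-26a against control, where 5.14% of all tested probes were lower. Its probe gave 15.37 and 15.60 in control, 14.90 and 15.08 in miR-26a and 15.61 and 15.59 in sponge, a change of -0.49 (limma adjusted p = 0.0275). The line lacks SLP-65 by its label, and as the place of this probe relative to the deleted part is not given in the sources used here, its signal checks nothing about the genotype. The other 9 tested probes changed by -0.24 to 0.21 with miR-26a. Against the sponge, 2 of the 10 were lower, beside 8.49% of all tested probes. They were the probe of Blnk (-0.61, limma adjusted p = 0.0123) and one of Ccnj (-0.43, adjusted p = 0.0292). The other Ccnj probe gave -0.16 (adjusted p = 0.586), with -0.57 and 0.25 in the experiments. With the sponge alone none was called, at -0.25 to 0.19.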
